A study of Mus musculus with 32 samples.

Results

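The genes described here are 9 long or small noncoding RNAs of neurons, Malat1, Neat1, Meg3, Rian, Mirg, Miat, Snhg11, Norad and Bc1, chosen by symbol from the 55573 genes of a count table of mouse hippocampal neurons. All 9 were found by symbol and all 9 passed the filter on low counts in each comparison. The cells came from newborn C57BL/6 mice (WT) or from Mettl3 flox/flox mice (Mettl3 KO), with tissue of a litter pooled, and were grown on porous inserts that let neurites pass to the underside. Both genotypes received AAV-hSyn-Cre-P2A-dTomato, so that WT control neurons carried Cre as well, and the hSyn promoter limits Cre to neurons. All cultures were silenced with TTX and D-AP5. They were then either left so (Ctrl) or depolarized with 55 mM KCl for 2 h, and soma and neurites were scraped separately, the soma fraction holding some neurites too. Each of the 8 groups (genotype, compartment, treatment) had 2 RNA-seq libraries, and DART-seq, in which a YTH-tethered deaminase edits C next to N6-methyladenosine (m6A), gave a list of m6A sites.

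These RNAs are known for acting without being translated, although the annotation in the files lists Snhg11 as protein coding and the other 8 as lncRNA. Malat1 is an abundant RNA of nuclear speckles and Neat1 is the scaffold of paraspeckles. Meg3, Rian and Mirg lie in a row among the maternally expressed RNAs of the imprinted Dlk1-Dio3 region, where Rian hosts snoRNAs and Mirg hosts microRNAs. Miat is a largely nuclear RNA of neurons, and Snhg11 is a snoRNA host gene with high levels in brain. Norad is a cytoplasmic RNA that binds PUMILIO proteins, and Bc1 is a short RNA polymerase III transcript of rodent neurons that is carried into dendrites and represses translation there.

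In GRCm38, the build of the files, Malat1 lies at chr19:5795690-5802672 on the minus strand as 1 exon of 6983 bases, and Neat1 at chr19:5824708-5845478 on the same strand as 1 exon of 20771 bases. The Dlk1-Dio3 members are Meg3 at chr12:109541001-109571726 with 8 exons, Rian at chr12:109603808-109661716 with 16 and Mirg at chr12:109729764-109749460 with 14, all on the plus strand. Miat lies at chr5:112213228-112229395 on the minus strand with 6 exons, and Snhg11 at chr2:158375638-158386145 on the plus strand with 4. Norad is a single exon of 4915 bases at chr2:156388065-156392979 on the minus strand.

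Bc1 is a single exon of 168 bases at chr7:144914470-144914637 on the plus strand. Its sequence is shown because most of it recurs in the genome. The capitals mark the 109 bases that lie in an identical stretch of at least 50 bases elsewhere in GRCm38, 64.9% of the exon. A copy of those 109 bases stands at chr13:9054572-9054680 in the gene Gm36264, and 51 of the last 84 bases of Bc1 are A.
Bc1: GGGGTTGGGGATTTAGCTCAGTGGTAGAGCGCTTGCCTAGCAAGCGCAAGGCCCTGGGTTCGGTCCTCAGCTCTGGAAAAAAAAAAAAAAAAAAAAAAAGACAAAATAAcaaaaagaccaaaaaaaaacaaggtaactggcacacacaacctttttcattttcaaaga

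Norad recurs even more widely. Of its exon bases, 97.9% lie in an identical stretch of at least 50 bases elsewhere, and 8 alignments of at least 100 bases were found, the longest 3018 bases at 97.9% identity. The lincRNA gene Gm7292 at chr6:117716342-117718868 aligned over 2537 bases at 99.2% identity. The share was 5.79% for Rian, 5.01% for Meg3, 3.69% for Snhg11, 3.05% for Malat1, 0.982% for Neat1 and 0 for Mirg and Miat. Reads that map to several places were counted in the deposited table, so the counts of Norad and Bc1 cannot be told apart from those of their copies.

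The 16 libraries held 33789183 to 71394235 counts. Across genes, the log2 ratio of the 2 libraries of a group had an SD of 0.167 to 0.364 in WT groups and 0.502 to 1.33 in Mettl3 KO groups. Counts over all exons of Mettl3 were 9.04 to 16.7 CPM (counts scaled to library size) in WT and 3.91 to 10.97 in Mettl3 KO libraries. KO was lower than WT by 0.73 on the log2 scale in Ctrl soma (edgeR quasi-likelihood test, adjusted p = 0.624) and by 1.19 in Ctrl neurites (adjusted p = 0.423), neither of which passed. Fos, an immediate early gene, was at 12.4 to 19.9 CPM in WT Ctrl and 1690 to 3202 in WT KCl libraries. The activity-regulated genes Npas4 and Arc rose with KCl in WT soma by 7.94 and 7.17 on the log2 scale, and Camk2a, whose mRNA is dendritic, was higher by 2.06 in WT Ctrl neurites. Every marker of the 5 cell-type lists was detected. Both libraries numbered 1 of Mettl3 KO KCl stood apart: summed astrocyte markers were 9526 CPM in soma and 18780 in neurites against 1099 to 6462 in the other 14 libraries, oligodendrocyte markers 3670 and 7332 against 58.7 to 191.5, and neuronal markers 1935 and 1960 against 4088 to 12620. Summed microglia markers were 404.9 and 296 CPM against 11.9 to 57.6, and fibroblast and vessel markers 138.7 and 746.7 against 12.8 to 82.7.

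Per length, the members' levels in WT Ctrl soma covered a wide range. Malat1 was at 483 ± 2.76 RPKM (counts per kilobase of exon, scaled to library size; SD, n = 2), Norad at 258.5 ± 9.05, Meg3 at 108.3 ± 1.56, Snhg11 at 89.4 ± 0.424 and Bc1 at 75.2 ± 18.9. Rian followed at 8.85 ± 0.247, Miat at 3.55 ± 0.156 and Mirg at 3.01 ± 0.454, and Neat1 was lowest at 0.102 ± 0.014. Of the neighbours in this order, Snhg11 and Bc1 differed by less than the SD of Bc1, and Miat and Mirg by little more than the SD of Mirg. RPKM divides by the full annotated exon length, 20771 bases for Neat1 and 168 for Bc1. A shorter isoform or uneven capture of short RNAs in the libraries would shift this order, which was not tested. In WT Ctrl neurites, the level of Norad, 546.2 ± 100.2 RPKM, stood above that of Malat1, 380 ± 6.58. Bc1 at 71.3 ± 0.106 then stood above Meg3 at 52.1 ± 4.21, and the order below was the same as in soma.

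**Figure D1:**
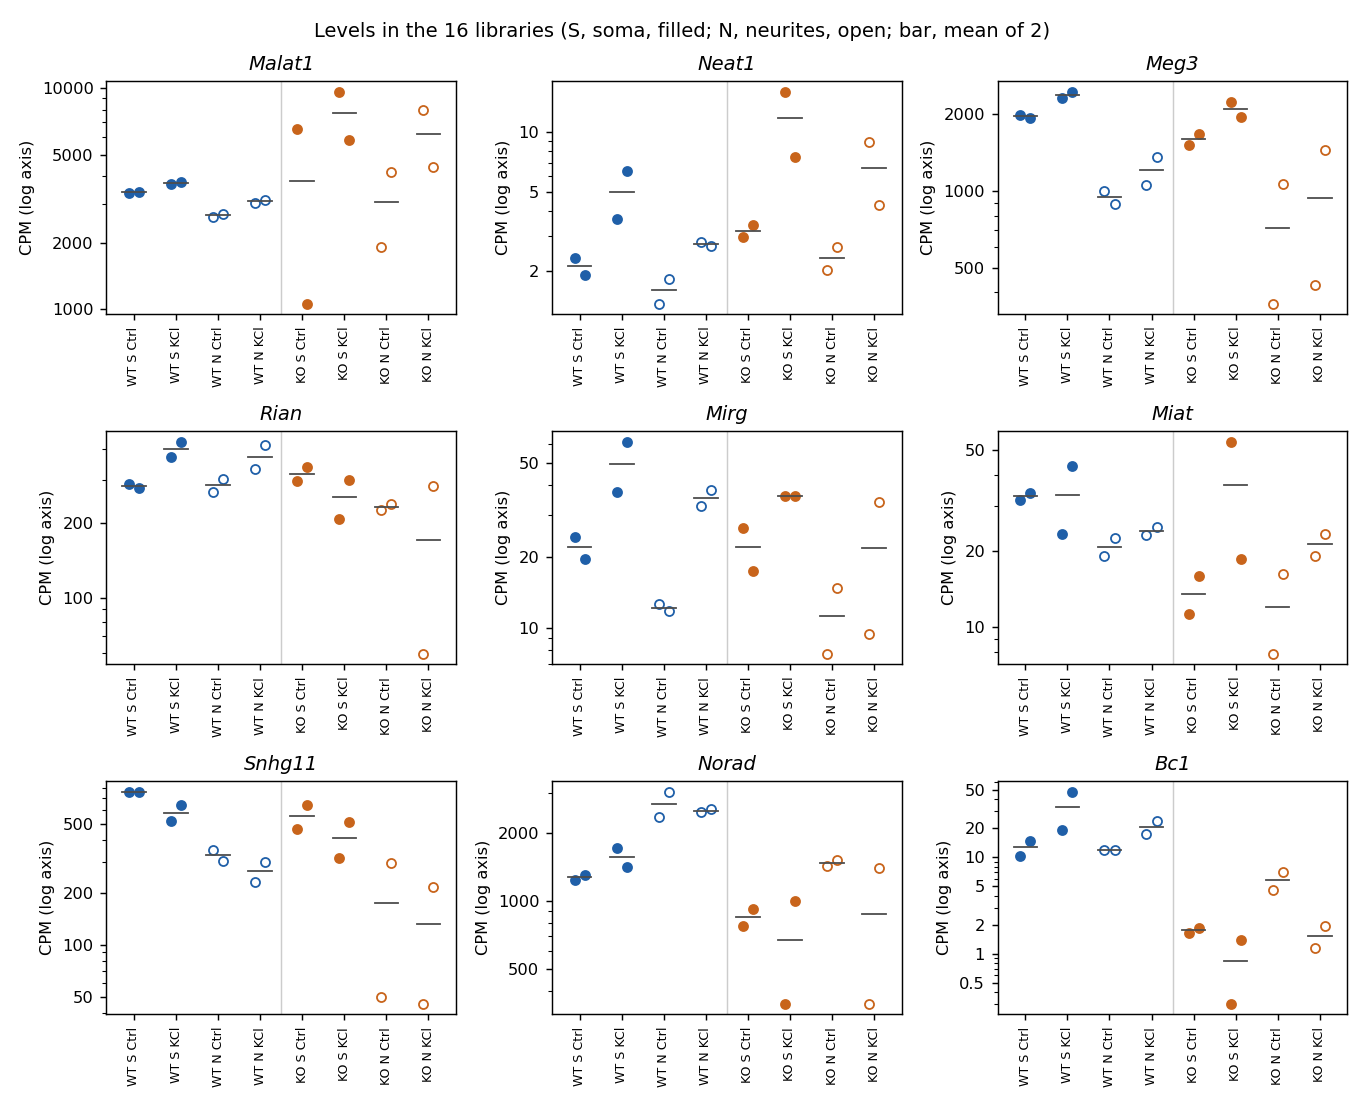
CPM of each of the 9 RNAs (log axis) in each of the 16 libraries, by compartment, treatment and genotype, 1 point per library. The 8 Mettl3 KO values of Bc1, 0.302 to 7.09 CPM, lie below its 8 WT values, 10.4 to 47.6 CPM.

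The first comparison asked where the RNAs stood between neurites and soma of silenced WT neurons. Meg3, Snhg11 and Mirg were lower in neurites and Norad was higher, each by at least 1.5-fold at an adjusted p of 0.05 or below (edgeR quasi-likelihood test with Benjamini-Hochberg adjustment). These are 4 of 9 members, and 13.6% of all 23200 genes tested passed the same rule. The median log2 change (neurites over soma) was -0.51 over the members and -0.10 over all genes. In bulk fractions, more RNA per cell and a different mix of cells cannot be told apart. Summed neuronal markers were 4887 to 6309 CPM in WT soma and 10510 to 12620 in WT neurites, and summed astrocyte markers rose from 1099 to 1460 CPM to 1960 to 2988. The neuronal sum includes Camk2a and Map2, whose mRNAs localize to neurites, so it does not measure the mix of cells alone. The part of these markers in the members' values was not tested.

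Meg3 was at 1979 and 1939 CPM in the 2 WT Ctrl soma libraries and at 996.4 and 888.8 in the 2 neurite libraries. The groups did not overlap, and the log2 change was -1.15 (SE 0.125, adjusted p = 0.000362). Snhg11 was at 759.2 and 764.3 CPM in soma and 351.4 and 304.1 in neurites, again with no overlap. Its log2 change was -1.31 (SE 0.152, adjusted p = 0.000499), the largest fall among the 9. Mirg was at 24.3 and 19.6 CPM in soma and 12.6 and 11.7 in neurites, a log2 change of -0.95 (SE 0.22, adjusted p = 0.0147). Mirg passed in 1 of 4 fits that each left out 1 of these libraries, with adjusted p values of 0.148, 0.0588 and 0.088 in the other 3.

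Norad went the other way. It was at 1239 and 1302 CPM in soma and 2336 and 3032 in neurites, a log2 change of 0.98 (SE 0.134, adjusted p = 0.00112) with no overlap. The near-identical Gm7292 had a log2 change of 0.90 (SE 0.12, adjusted p = 0.00104), and these shared reads could not be assigned to either.

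Of the nuclear RNAs, Malat1 was at 3359 and 3386 CPM in soma and 2622 and 2686 in neurites. The groups did not overlap and the adjusted p was 0.00765 by the same test, but the change, -0.44 on the log2 scale (SE 0.088), was under 1.5-fold. Neat1, at 2.32 and 1.91 CPM in soma and 1.38 and 1.83 in neurites, had a log2 change of -0.51 (SE 0.31, adjusted p = 0.271). Miat missed the threshold narrowly: 31.9 and 34.0 CPM in soma against 19.1 and 22.5 in neurites gave a log2 change of -0.76 (SE 0.24, adjusted p = 0.0503). Miat passed with DESeq2, at an adjusted p of 0.0116, and in edgeR with the replicate number as a block, at an adjusted p of 0.0328. In edgeR it did not pass with RLE scaling (adjusted p = 0.0608) or with all 16 libraries in 1 fit (adjusted p = 0.821). Leaving out each of its libraries in turn gave log2 changes of -0.87 to -0.64.

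The remaining members, Rian and Bc1, had overlapping groups. Rian, which lies between Meg3 and Mirg, was at 288.5 and 277.3 CPM in soma and 267.1 and 303.7 in neurites (log2 change -0.08, SE 0.133). Bc1 was at 10.4 and 14.9 CPM in soma and 11.98 and 11.96 in neurites (log2 change -0.17, SE 0.354, adjusted p = 0.767).

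In KCl-treated WT neurons, Meg3, Snhg11 and Norad passed in the same direction, 3 of 9 members against 9.6% of all 23028 genes. The log2 change of Meg3 was -0.97 (SE 0.124, adjusted p = 0.00117) and that of Snhg11 -1.11 (SE 0.15, adjusted p = 0.00145). Norad had a log2 change of 0.69 (SE 0.134, adjusted p = 0.00826) and passed in 1 of 4 fits that each left out a library. Mirg had -0.47 with overlapping groups (SE 0.212, adjusted p = 0.174), as had Miat at -0.46, Bc1 at -0.69 and Rian at -0.09. Malat1 at -0.26 and Neat1 at -0.86 were lower without overlap and did not pass (adjusted p = 0.0759 and 0.0794). Without WT soma KCl library 1, 7 of the 9 members passed. When all 16 libraries shared 1 estimate of the spread, none of the 9 passed in either WT comparison of compartments, and 0% of all genes did.

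**Figure D2:**
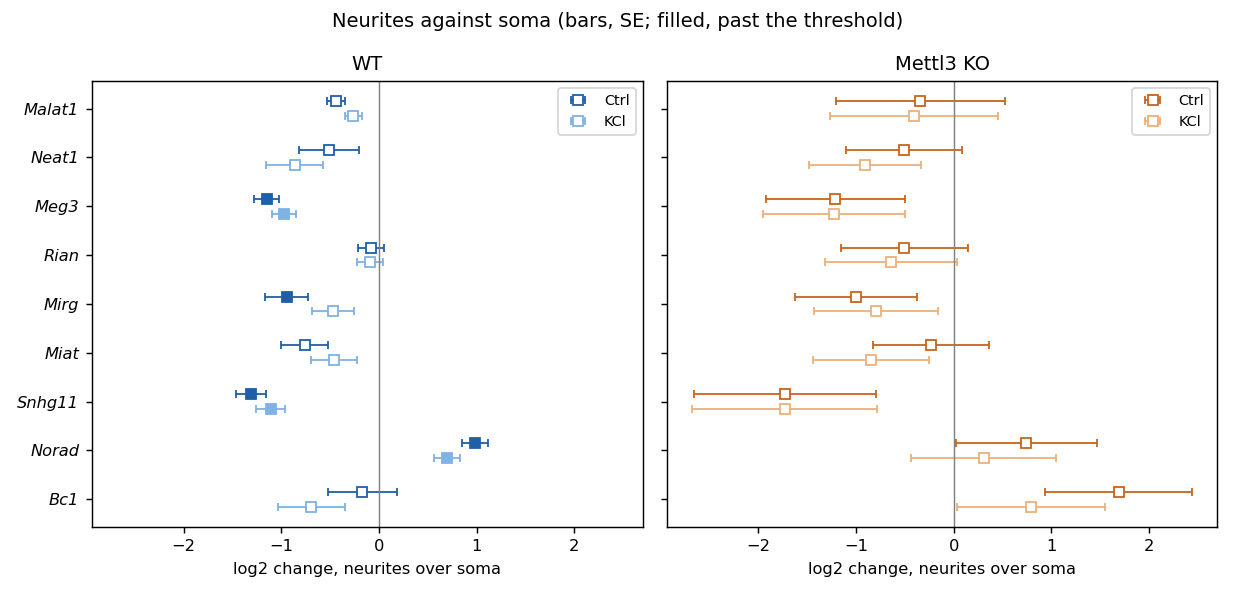
Log2 change of each RNA, neurites over soma, with its SE, in Ctrl and KCl neurons of WT (left) and Mettl3 KO (right) cultures. Meg3 and Snhg11 lie left of 0 and Norad right of 0 throughout. Filled symbols mark values that passed the threshold, and the SE of Meg3 in Ctrl is 0.125 in WT and 0.713 in Mettl3 KO.

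The next comparison asked which RNAs moved with 2 h of KCl. In WT soma, Neat1, Mirg and Bc1 rose by at least 2-fold at an adjusted p of 0.05 or below (edgeR quasi-likelihood test). They are 3 of 9 members, against 6.7% of all 24060 genes, and none fell. In WT neurites only Mirg passed, 1 of 9 against 5.03% of 22059 genes. The median log2 change (KCl over Ctrl) was 0.23 over the members and 0.01 over all genes in soma, and 0.39 and 0.01 in neurites. Summed neuronal markers were 4887 to 5220 CPM in WT Ctrl soma and 5937 to 6309 in WT KCl soma, and their part was not tested.

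Mirg, the microRNA host, was at 24.3 and 19.6 CPM in Ctrl soma and 37.6 and 61.3 in KCl soma. In neurites it was at 12.6 and 11.7 CPM in Ctrl and 32.6 and 38.3 in KCl. No groups overlapped. The log2 change was 1.10 in soma (SE 0.212, adjusted p = 0.00639) and 1.58 in neurites (SE 0.224, adjusted p = 0.00165), and the neurite value passed without any 1 of its 4 libraries. Neat1 was at 2.32 and 1.91 CPM in Ctrl soma and 3.64 and 6.38 in KCl soma, a log2 change of 1.17 (SE 0.29, adjusted p = 0.0224). In neurites its log2 change was 0.82 (SE 0.315, adjusted p = 0.148).

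Bc1 was at 10.4 and 14.9 CPM in Ctrl soma and 19.3 and 47.6 in KCl soma. The groups did not overlap but the KCl pair spread widely, and the log2 change was 1.34 (SE 0.345, adjusted p = 0.027). In neurites, 11.98 and 11.96 CPM in Ctrl and 17.5 and 23.8 in KCl gave 0.82 (SE 0.359, adjusted p = 0.205). The soma result rested on single libraries. Without WT soma KCl library 2, the log2 changes of Neat1, Mirg and Bc1 were 0.70, 0.69 and 0.53 and none passed. None passed without WT soma Ctrl library 2 either, and Mirg alone did without WT soma Ctrl library 1.

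Of the others, Rian was higher in both compartments without overlap, by 0.43 in soma (SE 0.132, adjusted p = 0.0575) and 0.42 in neurites (adjusted p = 0.0845), and neither passed. Rian and Meg3 did not pass where their neighbour Mirg did, and the difference between these genes was not tested. Meg3 had 0.21 in soma and 0.39 in neurites (adjusted p = 0.323 and 0.0832). Snhg11 was lower, by -0.47 in soma (SE 0.148, adjusted p = 0.0615), with 759.2 and 764.3 CPM in Ctrl and 519.2 and 638.3 in KCl. Malat1 had 0.07 in soma and 0.25 in neurites, Norad 0.23 and -0.06 and Miat -0.05 and 0.25, and none of these passed.

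**Figure D3:**
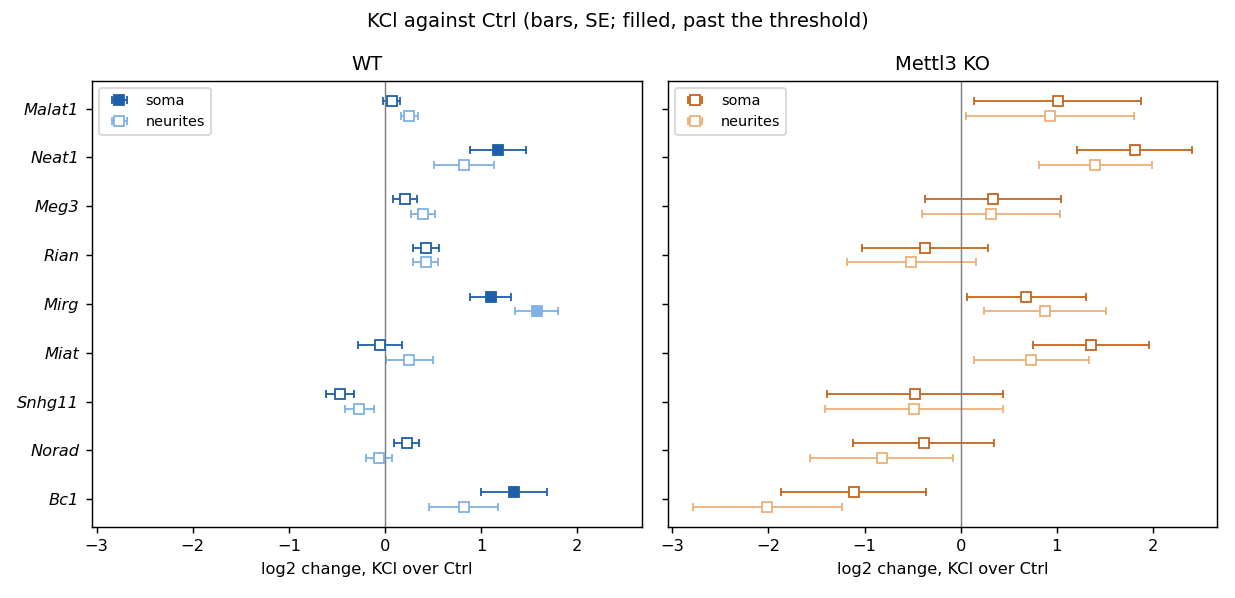
Log2 change of each RNA, KCl over Ctrl, with its SE, in soma and neurites of WT (left) and Mettl3 KO (right) cultures. In WT, Mirg lies at 1.10 and 1.58 and Snhg11 at -0.47 and -0.27, and in Mettl3 KO, Bc1 lies at -1.12 and -2.01.

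Whether KCl moved an RNA between compartments was tested as the difference of the neurite over soma ratios, with each neurite library set against the soma library of the same number, as in the study's methods. None of the 9 members passed a 1.5-fold difference at an unadjusted p of 0.05 or below in WT, against 3.36% of 23200 genes. The nearest was Mirg, with a difference of 0.51 on the log2 scale (SE 0.226), under 1.5-fold. The difference was 0.17 for Meg3, 0.20 for Snhg11, 0.18 for Malat1 and 0.37 for Miat, and it was -0.28 for Norad, -0.30 for Neat1, -0.01 for Rian and -0.42 for Bc1.

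In Mettl3 KO cultures, no gene passed in any comparison within the genotype by the edgeR quasi-likelihood test, so that percent called was 0 for neurites over soma in Ctrl and in KCl and for KCl over Ctrl in soma and in neurites. At an unadjusted p of 0.05 or below the test gave 1239, 132, 1562 and 1390 genes in these comparisons. Large changes did not pass either. With KCl in KO soma, Fos, Npas4 and Arc had log2 changes of 5.81, 6.90 and 6.36 (edgeR adjusted p = 0.3, 0.29 and 0.353). Camk2a had 1.75 for neurites over soma in KO Ctrl (edgeR adjusted p = 0.841). A share of 0% thus does not mean that no gene changed. DESeq2 called 0.0754% of genes for neurites over soma in Ctrl and 1.14% for KCl over Ctrl in each compartment, and none of the 9 members.

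The values of Meg3 and Snhg11 in KO Ctrl cultures lay on the same side as in WT. Meg3 was at 1517 and 1679 CPM in soma and 361.8 and 1068 in neurites, a log2 change of -1.21 (SE 0.713, adjusted p = 0.842). Snhg11 was at 464.5 and 642.8 CPM in soma and 50.0 and 297.5 in neurites, a log2 change of -1.73 (SE 0.931, adjusted p = 0.841). For neither did the groups overlap, yet the neurite pairs differed severalfold. In KO KCl cultures, Meg3 had -1.22 and Snhg11 -1.73. Malat1 shows how far KO libraries parted: its neurite over soma log2 ratio was -1.79 in the KO Ctrl libraries numbered 1 and 1.98 in those numbered 2, with 6560 and 1060 CPM in soma and 1901 and 4179 in neurites.

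Neat1 in KO soma was at 2.98 and 3.41 CPM in Ctrl and 15.9 and 7.44 in KCl, a log2 change of 1.81 (SE 0.60, adjusted p = 0.746). The higher of the KCl values came from the library with the raised glial markers. In KO neurites its log2 change with KCl was 1.40 (adjusted p = 0.737). Neat1 groups did not overlap in either compartment, but neither value passed. Norad had a neurite over soma log2 change of 0.74 in KO Ctrl and 0.31 in KO KCl, Mirg -0.9996 and -0.80, Rian -0.50 and -0.64, and Miat -0.23 and -0.84. With KCl, KO soma and neurites gave 0.68 and 0.88 for Mirg and 1.36 and 0.73 for Miat, with SEs of 0.597 to 0.636.

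Bc1 was lower in Mettl3 KO than in WT libraries throughout. In Ctrl soma it was at 10.4 and 14.9 CPM in WT and at 1.65 and 1.83 in KO. In Ctrl neurites it was at 11.98 and 11.96 CPM in WT and 4.58 and 7.09 in KO. KCl libraries ranged from 17.5 to 47.6 CPM in WT and from 0.302 to 1.93 in KO. None of the 8 KO libraries reached the lowest WT library, and the raw counts behind them were 21 to 255 in KO and 398 to 3275 in WT.

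The test of Bc1 in Ctrl soma gave a log2 change (KO over WT) of -2.86 (SE 0.621), which did not pass after adjustment with edgeR (adjusted p = 0.129). It passed with DESeq2 (adjusted p = 0.000678), with no filter on low counts (4.31e-06) and without the KO KCl libraries numbered 1 (0.0133). In Ctrl neurites the log2 change was -1.03 (SE 0.585, adjusted p = 0.799). No member passed in either compartment, against 0.185% of 23750 genes in soma and 0.188% of 21814 in neurites. Summed astrocyte markers were 2408 and 1820 CPM in KO Ctrl soma against 1099 and 1120 in WT, and 6462 and 2785 in KO Ctrl neurites against 2988 and 1960. Summed neuronal markers were 4088 and 4962 CPM in KO soma against 4887 and 5220, and 6201 and 8255 in KO neurites against 10510 and 12620. The neuronal sum again includes the neurite-localized mRNAs Camk2a and Map2. The part of these markers in the genotype values was not tested. WT cultures were C57BL/6 and KO cultures came from the floxed line, so that the mouse line and the loss of Mettl3 cannot be told apart.

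Other members differed less between genotypes. Miat in Ctrl soma was at 31.9 and 34.0 CPM in WT and 11.3 and 15.9 in KO, a log2 change of -1.28 (SE 0.481, adjusted p = 0.436). Snhg11 had -0.46 in soma and -0.91 in neurites, and Norad -0.59 and -0.87. Malat1, Neat1, Meg3, Rian and Mirg lay between -0.39 and 0.59 in both compartments, and none passed. The median log2 change (KO over WT) was -0.30 over the members and 0.02 over all genes in soma, and -0.39 and 0.01 in neurites.

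The difference in neurite over soma ratio between KO and WT Ctrl cultures passed a 1.5-fold difference at an unadjusted p of 0.05 or below for Bc1 alone, 1 of 9 members against 4.19% of 22942 genes. Among the others the difference ran from -0.94 for Snhg11 to 0.44 for Malat1. Bc1 had a neurite over soma log2 ratio of 0.21 and -0.31 in the same-numbered WT Ctrl libraries and 1.47 and 1.96 in the KO Ctrl libraries. The difference was 1.77 (SE 0.513), and after adjustment it did not pass (edgeR, adjusted p = 0.934). Without WT neurite Ctrl library 2 it was 1.51 for Bc1 and missed the unadjusted threshold.

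The genotype difference in the KCl response of soma also passed the unadjusted threshold for Bc1 alone, 1 of 9 members against 2.05% of 24058 genes. Bc1 rose with KCl in WT soma, as above, and was at 1.65 and 1.83 CPM in KO Ctrl soma and at 0.302 and 1.38 in KO KCl soma. The value of 0.302 came from KO KCl soma library 1, where summed neuronal markers were 1935 CPM and astrocyte markers 9526. Without that library the log2 change of Bc1 with KCl in KO soma was -0.33 in place of -1.12, and the difference from WT was -1.75 and still passed at the unadjusted threshold. The difference of the log2 changes was -2.48 (SE 0.849, edgeR adjusted p = 0.994). It lost its call without WT soma Ctrl library 1 and without WT soma KCl library 2, where it was -1.69. Among the other members the difference ran from -0.82 for Rian (SE 0.711) to 1.40 for Miat (SE 0.67). In KO neurites KCl gave Bc1 a log2 change of -2.01 (SE 0.774, adjusted p = 0.737).

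**Figure D4:**
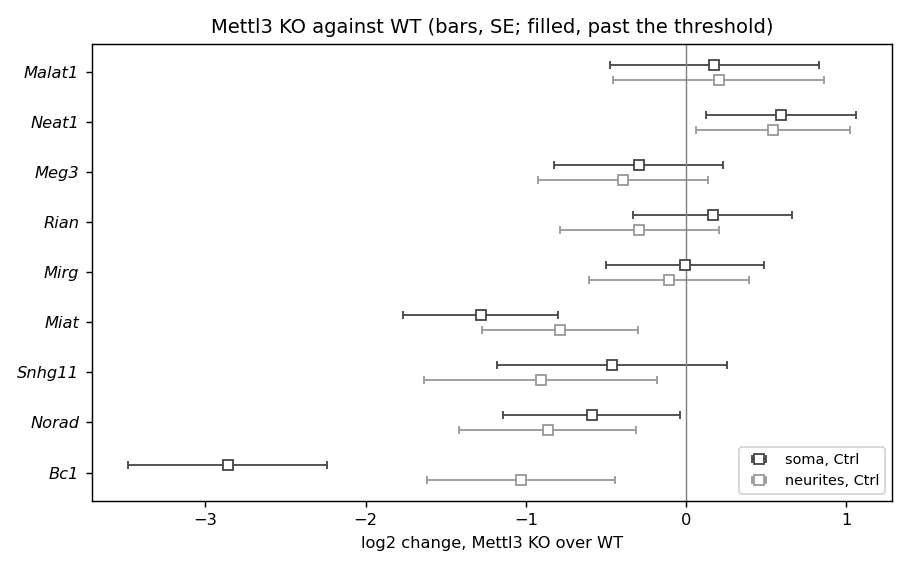
Log2 change of each RNA, Mettl3 KO over WT, with its SE, in Ctrl soma and Ctrl neurites. Bc1 lies at -2.86 in soma and -1.03 in neurites, and Miat at -1.28 and -0.79.

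The m6A sites of these RNAs came from DART-seq. The deposited list holds 18231 sites in 5643 RNAs, each with a C-to-U fraction averaged over libraries, and lists only sites at RAC motifs (R is A or G) that were edited more in WT than in Mettl3 KO. Depth per site and library values are not in it, so that no interval or test is given. Of the 9 RNAs, 3 have sites: Meg3 has 20, Snhg11 4 and Malat1 1. The other 6, Neat1, Rian, Mirg, Miat, Norad and Bc1, have none listed. Their exons do hold RAC motifs, 756 in Rian, 507 in Neat1 and 6 in Bc1. The paper called sites only at positions with a minimum number of unique reads. Neat1, for instance, had 61 to 439 counts per WT RNA-seq library over 20771 bases. Whether the 6 RNAs had enough reads for a site to be called was not tested. All 25 sites are exonic, 15 of them at GAC and 10 at AAC.

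Malat1 has a single site, at chr19:5799449, with a fraction of 0.224, rank 120 of all 18231. Meg3 is among the 10 RNAs (0.177% of 5643) with 20 or more sites, where the median RNA has 2. Its fractions run from 0.0125 to 0.111, against a median of 0.0354 over all sites. The 20 sites fall in exon 3 (5), exon 4 (4), exon 5 (1) and exon 8 (10) of its 8 exons, 1.11 per kilobase of exon. The 4 sites of Snhg11 all lie in the last of its 4 exons, with fractions of 0.105, 0.0835, 0.0733 and 0.0179. The windows below are 21 bases of GRCm38, 5′ to 3′ on the strand of the RNA, for the sites with the highest fractions. Capitals mark the RAC triplet, whose C is the edited base.
Malat1 chr19:5799439-5799459 (minus strand, 0.224): ttatttgtAACttataattta
Meg3 chr12:109559887-109559907 (plus strand, 0.111): cgcaatctGACcacttaactc
Meg3 chr12:109558961-109558981 (plus strand, 0.0752): accaggaaGACcgtactatgt
Meg3 chr12:109544107-109544127 (plus strand, 0.0715): ggacaagcGACaaagaggatc
Meg3 chr12:109549333-109549353 (plus strand, 0.0706): cttcgtcgAACtcgaaatcct
Snhg11 chr2:158385201-158385221 (plus strand, 0.105): aacctaacAACtaatcaatgg
Snhg11 chr2:158385198-158385218 (plus strand, 0.0835): aaaaacctAACaactaatcaa
Snhg11 chr2:158385595-158385615 (plus strand, 0.0733): cacagtatAACattgtattgc

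The first pair of Snhg11 windows overlap, since their edited bases are 3 bases apart. The sites give Malat1 a different makeup from Meg3: 1 highly edited position against many at low fractions, which for Meg3 sum to 0.859. The deposited m6A scores by compartment were 0.282 in soma and 0.138 in neurites for Malat1, 0.690 and 1.10 for Meg3, and 0.273 and 0.217 for Snhg11. The scores in WT and in Mettl3 KO were 0.201 and 0.138 for Malat1, 0.813 and 0.294 for Meg3, and 0.255 and 0.0801 for Snhg11. Only sites edited more in WT than in Mettl3 KO were listed, so the choice of sites sets this order. Among the 3 members with scores, only Meg3 had a higher score in neurites than in soma, while its RNA level was lower there. A higher score in neurites is not particular to Meg3, since the paper reports generally higher editing in neurites. In Mettl3 KO, Malat1 kept most of its WT score at its single site, and Meg3 and Snhg11 did not. This difference between the RNAs was not tested. No replicate values stand behind these scores.

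**Figure D5:**
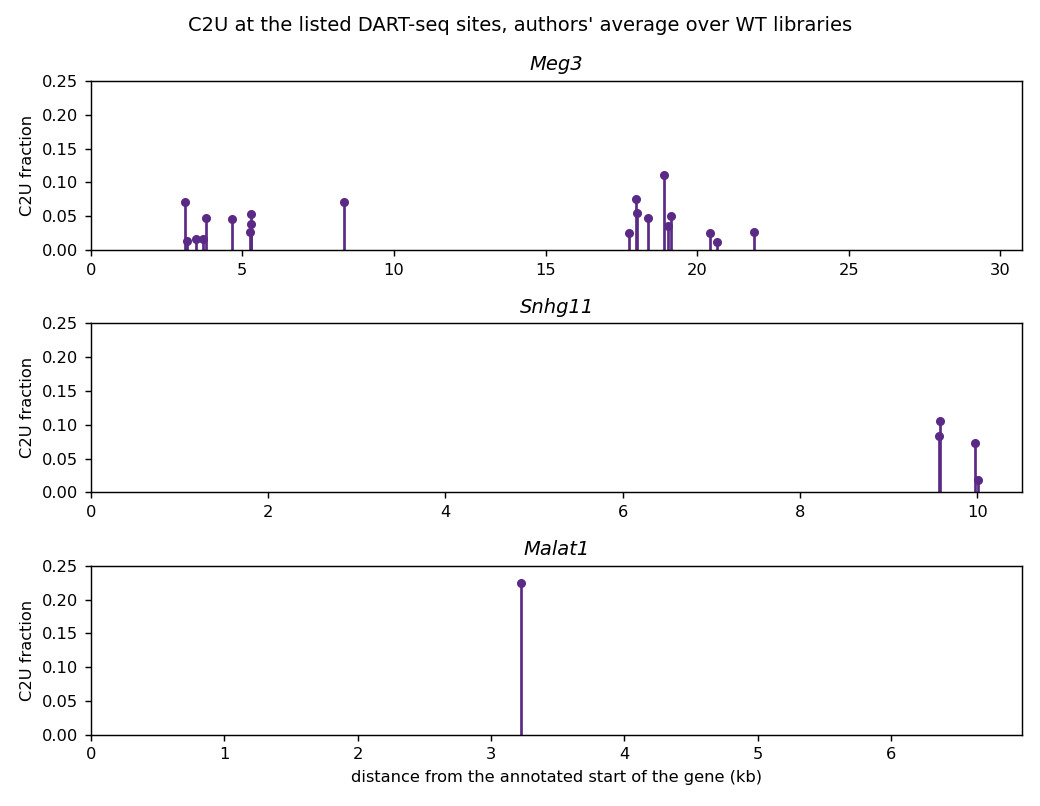
C-to-U fraction of each listed m6A site of Malat1, Meg3 and Snhg11 against its position along the gene, in kilobases from the gene's start. Malat1 has 1 site at 0.224, Meg3 20 sites up to 0.111 and Snhg11 4 sites up to 0.105 near its end.

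For a list of 45 other noncoding RNA genes, 40 entries were tested in most comparisons, with Snhg4 entered under 2 gene identifiers. For WT Ctrl neurites over soma, 5 were higher and 6 lower by the same edgeR rule, with a median log2 change of 0.04. The largest were the snoRNA host Snhg8 at 1.26 and, on the lower side, the nuclear RNA Firre at -1.28. In WT KCl, 2 were higher and 5 lower, with Snhg18 at 1.31 and Mir124a-1hg at -0.95 the largest. With KCl, 5 rose and 2 fell in WT soma and 4 rose and 1 fell in WT neurites. The snoRNA host Snhg1 rose by 2.33 in soma and 2.43 in neurites, and Mir124a-1hg, the host of the neuronal microRNA miR-124, fell by 1.82 and 1.65. None of this list passed within Mettl3 KO or for KO over WT. At the unadjusted threshold for differences of changes, 2 had a lower neurite ratio with KCl in WT (Rmst at -1.31, Snhg8 at -0.66), 3 a higher one in KO (the largest Snhg9 at 1.77) and 3 a higher KCl response in KO (the largest H19 at 5.60). Over all genes tested, 3.36%, 4.19% and 2.05% passed these rules. The H19 value has an SE of 2.29 (edgeR adjusted p = 0.994), and H19 was under the count filter for KO over WT in Ctrl soma. It also involves KO KCl soma library 1, with its raised fibroblast and vessel markers, whose part was not tested. For the neurite ratio by genotype, the median difference was 0.45 over this list and -0.03 over all genes. Of the 4 protein-coding genes of the Dlk1-Dio3 region, 3 were tested. In WT Ctrl neurites Begain was higher at 0.93 and Rtl1 lower at -1.52. With KCl in WT neurites Rtl1 rose by 1.65, and Begain and Dlk1 had -0.15 and 1.20 without passing. An antisense RNA shares the Rtl1 locus, and the counts take no account of strand.

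Across the 16 libraries, the gene most like each member was found by Pearson's r of log2 CPM over 15170 genes, a description of libraries that share depth, compartment and treatment. Norad was most like Gm7292, one of its copies (r = 0.998), and Meg3 most like Gm27000 (r = 0.991), which holds 597 identical bases of Meg3 at chrX:88759471-88760067. Mirg was most like Gm37899 (r = 0.968), which lies between Rian and Mirg at chr12:109668869-109677585. Bc1 was most like Trhr (0.935), Rian like Usp29 (0.961), Snhg11 like Gm45204 (0.948), Neat1 like Ptbp1 (0.939), Malat1 like Atp11a (0.921) and Miat like Ap1g2 (0.906). Within the 9, the closest pair was Meg3 and Snhg11 (r = 0.901). Over the 8 WT libraries the closest pair was Malat1 and Meg3 (r = 0.961), and Meg3 and Snhg11 had r = 0.832. There, Meg3 kept its nearest gene (r = 0.994) and the other 8 members had another.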

How the data were processed

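RNA-seq and DART-seq libraries of soma and neurites were described by the submitters, 2 RNA-seq libraries per group from distinct litters. The values were deposited as follows. The deposited counts are fragments per gene: per the labels and the study's methods, the authors aligned reads to mm10 with STAR 2.7.7a and counted them over the exons of GRCm38 Ensembl genes with featureCounts 2.0.1, with multi-mapping reads counted, no use of strand, and reads that overlap several genes left unassigned. The authors' m6A site list holds a C-to-U fraction per site, averaged over WT libraries, and their per-RNA table holds scores, described as sums of site editing, for WT, Mettl3 KO, soma and neurites. The fractions and the scores do not match exactly: the single site of Malat1 has a fraction of 0.224 and its WT score is 0.201. The authors also deposited columns of log2 fold changes and p-values of their own comparisons, which were not used here.

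Counts were tested with edgeR 4.0.16 (quasi-likelihood, TMM scaling) in R 4.3.3 on all genes whose mean count was 10 or higher, after leaving out mitochondrial genes, and p-values were adjusted by Benjamini-Hochberg over all genes tested. WT comparisons were fitted on the 8 WT libraries, KO comparisons on the 8 KO libraries, and comparisons between genotypes on all 16. A change of 1.5-fold (2-fold for KCl) at an adjusted p of at most 0.05 was called. Differences of changes were called at 1.5-fold where the unadjusted p was 0.05 or lower, after the study's methods, and differences of neurite over soma ratios were fitted with a term for each same-numbered pair of soma and neurite libraries. CPM and RPKM were scaled by TMM over the 16 libraries, so that log2 ratios of printed CPM can differ slightly from fitted log2 changes. Likeness used log2 CPM with a prior count of 2 and genes whose mean count was 100 or higher. Copies were found with blastn 2.17.0 in GRCm38, and sequences were read from GRCm38. The fits for WT Ctrl neurites over soma and for KO over WT in Ctrl soma were tried on simulated counts. The other fits, including those within KO and the differences of changes, were not. The study gives distinct litters for the duplicates, but the labels do not tie a replicate number to a litter, and p-values measure only the spread between these libraries. The members and the gene lists were chosen with earlier results of these data known. The text names all 9 members, the gene most like each, and at most the 2 largest called changes in each direction of each list, and Begain and Dlk1 beside Rtl1 were named after their values were seen. Alternatives were DESeq2 1.42.0, RLE scaling in place of TMM, another filter on low counts and all 16 libraries in 1 fit. Others were the libraries of a comparison alone, a replicate block, and leaving out each library in turn.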

Additional observations from a re-analysis of the deposited data

Results flagged for a closer look

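Bc1 differed between genotypes under the same contrast in 2 comparisons. Its neurite over soma log2 change in Ctrl cultures was higher in Mettl3 KO than in WT by 1.77 (SE 0.513, adjusted p = 0.934 with edgeR's quasi-likelihood test). The change of Bc1 with KCl in soma was lower in Mettl3 KO than in WT, with a difference of -2.48 on the log2 scale (SE 0.849, adjusted p = 0.994 by the same test). Both differences passed only at the unadjusted p, at which 4.19% and 2.05% of all genes passed. Of 40 tested entries for other noncoding RNA genes, 3 also had a higher neurite ratio in KO at that threshold and 0 a lower one. The KO values rest on 21 to 255 counts of Bc1 per library. Without KO KCl soma library 1, whose glial markers were raised, the difference in the KCl change of Bc1 was -1.75.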

How the results depend on the processing

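Of 1463 recomputed log2 changes of members, 1330 kept their direction and their side of the threshold, 31 lost a call, 31 gained one and 71 turned direction, 67 of these on leaving out libraries. For each, the cause was not tested. With all 16 libraries in 1 fit, the members called fell from 4, 3, 3 and 1 to 0, 0, 0 and 0 (WT neurites over soma in Ctrl and KCl, KCl in WT soma and neurites), and the shares of all genes called to 0%, 0%, 1.42% and 1.19%. Rian (neurites over soma, WT Ctrl) then stood at 0.018 and Miat (KCl, WT soma) at 0.015. With no filter on low counts, 5 members passed for WT KCl neurites over soma, 1 for KO over WT in soma, 2 for the genotype difference in neurite ratio and 2 for that in KCl response, and the shares of genes called were 7.97%, 5.84% and 4.28% in WT (Ctrl and KCl neurites over soma, KCl in soma), 1.01% and 0.706% for KO over WT in soma and neurites, 3.89% for the difference in KCl response, and within KO 0.373%, 0.00424%, 1.65% and 1.57%. DESeq2 called 1 member for KO over WT in soma, and 1.74% and 1.43% of genes in soma and neurites. For the 3 differences of changes (WT neurite ratio with KCl, neurite ratio by genotype, KCl response by genotype) it called 2.15%, 6.9% and 3.2%. At an adjusted p of 0.05, the genotype differences called 0 members and 0% of genes. A minimum mean count of 100 gave 0.297% for KO over WT in soma, and the libraries of the comparison alone gave 0% in soma, 0.623% in neurites and 1.51% for the neurite ratio by genotype. The 16-library fit gave 1.17% and 1% for KCl within KO and 1.25% for the WT neurite ratio with KCl.

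The replicate block moved no count of members called by over 1.5 times. It gave 5 members called for WT Ctrl neurites over soma, with Miat added, turned Malat1 to 0.048 (neurites over soma, KO Ctrl) and -0.14 (KO over WT, soma), and gave 0.0842% and 0.105% of genes for KO over WT in soma and neurites. Without pair terms, 1.29% of genes passed for the neurite ratio by genotype. Replicate numbers did not pair the libraries throughout: the correlation of deviations of same-numbered soma and neurites was -0.141 in WT Ctrl, 0.0153 in WT KCl, 0.0716 in KO Ctrl and 0.901 in KO KCl. A crossed pairing of WT Ctrl, chosen after seeing the data, called 5 members for neurites over soma and 0 for the change with KCl.

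Leaving out the 2 Mettl3 KO KCl libraries numbered 1 gave 1 member called for KO over WT in soma, with 1.76% and 1.24% of genes in soma and neurites. It turned Miat to 0.34 (neurites over soma, KO KCl), Norad to 0.19 (KCl, KO soma), Rian to 0.31 and Snhg11 to 0.34 (KCl, KO neurites), Neat1 to 0.0085 (neurite ratio by genotype) and Snhg11 to 0.32 (KCl response by genotype).

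Leaving out 1 library at a time, the members called ranged from 3 to 4 and from 2 to 7 for WT neurites over soma in Ctrl and KCl, from 0 to 3 for KCl in WT soma, and from 0 to 2, 0 to 3 and 0 to 2 for the 3 differences of changes. The lone library left in a group was then assumed to vary like the other groups. The shares of all genes called fell to as low as 4.63%, 3.21%, 3.42% and 2.63% in the 4 WT comparisons, reached 5.02% for neurites over soma in KO Ctrl, moved to between 0.0168% and 11.1% for KO over WT in soma and 0.0184% and 0.0652% in neurites, and moved to between 2.23% and 7.27%, 1.06% and 21.6%, and 0.66% and 14.8% for the 3 differences of changes. The log2 changes that turned direction ranged as follows. For neurites over soma in WT Ctrl, Rian went from -0.17 to 0.019 and Bc1 from -0.33 to 0.19. In WT KCl, Rian went from -0.25 to 0.052, Miat from -0.82 to 0.074 and Bc1 from -1.18 to 0.12. In KO Ctrl, Malat1 went from -1.11 to 1.54 and Miat from -0.84 to 0.31. In KO KCl, Malat1 went from -0.79 to 0.053, Rian from -2.20 to 0.16, Miat from -1.40 to 0.17 and Norad from -1.05 to 1.28. For KCl over Ctrl in WT soma, Miat went from -0.58 to 0.35. In WT neurites, Norad went from -0.24 to 0.13. In KO soma, Norad went from -1.33 to 0.24. In KO neurites, Meg3 went from -0.996 to 1.31, Rian from -2.22 to 0.22, Mirg from -0.51 to 1.54 and Snhg11 from -2.19 to 1.32. For KO over WT in Ctrl soma, Malat1 went from -1.62 to 0.93 and Mirg from -0.29 to 0.23. In Ctrl neurites, Malat1 went from -0.45 to 0.67, Meg3 from -1.35 to 0.19 and Mirg from -0.62 to 0.29. For the WT neurite ratio with KCl, Neat1 went from -0.76 to 0.18, Meg3 from -0.013 to 0.29, Rian from -0.23 to 0.11, Miat from -0.050 to 0.80, Snhg11 from -0.022 to 0.31 and Bc1 from -0.87 to 0.043. For the neurite ratio by genotype, Malat1 went from -1.44 to 2.33, Neat1 from -0.40 to 0.31, Meg3 from -1.01 to 0.41, Mirg from -0.92 to 0.61 and Snhg11 from -1.999 to 0.11. For the KCl response by genotype, Neat1 went from -0.029 to 1.09, Meg3 from -0.0022 to 0.22 and Snhg11 from -0.41 to 0.28. In the neurite ratio by genotype, Malat1 passed in both directions, at -1.44 and -1.38 without the soma and without the neurite KO Ctrl library numbered 2, and at 2.33 without either one numbered 1.

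Levels in CPM from total counts moved by more than 1 SD in 23 of 72 cases. Fold changes of Neat1 and of Bc1 in KO rest on low counts, and with 2 libraries a group the spread within a group is poorly known.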
